A study of Mus musculus with 24 samples.

Results

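Myb, Plac8, Lrmp and Map4k1 are 4 genes of blood-forming and immune cells, taken by name from 38321 gene IDs counted in every library. They were chosen by their lower counts under estradiol, seen in earlier results of these data, in the dentoalveolar complex (DAC), the maxillary molars with their surrounding jaw bone. That choice fixes their direction in this comparison, so those values are given as a description with no test. The RNA-seq libraries came from wild-type female C57BL/6J mice, 11 weeks old at the start, and every mouse had ligature-induced periodontitis from a silk suture tied around the second maxillary molars of both sides on day 7. Mice of the OVXE2 group were ovariectomized on day 0 and injected under the skin with estradiol benzoate at 1 µg per day in 100 µL corn oil from day 4. Mice of the OVX group were ovariectomized and given the oil alone, and mice of the Sham group had sham surgery and the oil alone. DAC and gingiva were collected on day 14, with 4 libraries per group and tissue and 24 in all. No library came from a mouse without ligature, and all are whole tissue rather than sorted cells.

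Myb encodes c-Myb, a DNA-binding transcription factor that blood stem cells and the precursors of every blood lineage need, and its level drops as those precursors mature. Plac8, also called onzin, encodes a small cysteine-rich protein found in myeloid and lymphoid cells, and mouse neutrophils that lack it kill ingested bacteria poorly. Lrmp, also called Jaw1, encodes a protein of developing lymphocytes held in the membrane of the endoplasmic reticulum, where it associates with inositol trisphosphate receptors. Map4k1, also called HPK1, encodes a serine/threonine kinase of blood cells that restrains signalling from the T and B cell antigen receptors and can activate the JNK pathway. Jaw bone holds marrow, and estradiol is known to reduce the formation of B cells in mouse marrow.

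The genes lie apart on the GRCm38 genome, in the coordinates of GENCODE M21. Myb (ENSMUSG00000019982) spans positions 21124935 to 21160984 of chromosome 10 on the minus strand. Plac8 (ENSMUSG00000029322) spans 100553725 to 100572245 of chromosome 5 on the minus strand, Lrmp (ENSMUSG00000030263) spans 145115653 to 145174934 of chromosome 6 on the plus strand, and Map4k1 (ENSMUSG00000037337) spans 28982050 to 29003279 of chromosome 7 on the plus strand. The 210 bases before each start site are shown for the 3 genes with a RefSeq promoter entry (GRCm38.p6), as a description. They are read 5′ to 3′ on the gene's own strand. The windows lie at chr10:21160985-21161194 on the minus strand for Myb and chr5:100572246-100572455 on the minus strand for Plac8. That of Map4k1 lies at chr7:28981840-28982049 on the plus strand. Capitals mark an E2F core (GGCGGGA) in Myb, Runx cores (TGTGGT, read here on the other strand) in Plac8 and Myb cores (AACNG, read here on the other strand) in Map4k1.
Myb: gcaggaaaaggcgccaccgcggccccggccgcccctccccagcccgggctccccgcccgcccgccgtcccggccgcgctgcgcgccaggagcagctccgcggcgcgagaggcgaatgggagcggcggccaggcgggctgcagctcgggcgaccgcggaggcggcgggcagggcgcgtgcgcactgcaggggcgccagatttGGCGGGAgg
Plac8: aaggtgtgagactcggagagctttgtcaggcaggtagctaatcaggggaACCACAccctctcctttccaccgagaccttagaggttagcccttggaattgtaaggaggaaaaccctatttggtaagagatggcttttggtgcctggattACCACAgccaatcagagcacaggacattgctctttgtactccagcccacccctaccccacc
Map4k1: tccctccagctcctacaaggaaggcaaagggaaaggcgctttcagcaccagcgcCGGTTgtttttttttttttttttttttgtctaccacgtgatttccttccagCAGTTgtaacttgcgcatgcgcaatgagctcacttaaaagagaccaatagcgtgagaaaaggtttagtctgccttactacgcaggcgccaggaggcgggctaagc

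The windows share no motif of the set searched apart from the short ETS core. G and C made up 81.9% of the bases before Myb, 51.9% before Plac8 and 48.6% before Map4k1, against a median of 52.9% over 32851 promoter windows of the same length. The windows hold 1 E2F core before Myb, 2 Runx cores before Plac8 and 2 Myb cores before Map4k1, on either strand. Of all windows, 8.97% hold the E2F core, 11.8% the Runx core and 67.7% the Myb core. The ETS core (GGAA), left in lower case, stands in all 3 windows and in 90.1% of all. The estrogen response element was searched as the letters GGTCA followed, after 3 bases of any kind, by their reverse complement. Neither this full element (in 0.0365% of all windows) nor GGTCA alone (in 30.6%) is among the letters of the 3 windows. The motifs were chosen with these sequences in view, and a match of letters is no evidence of binding.

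Library totals ranged from 14771830 to 29248358 gene counts in the DAC and from 18598422 to 26001342 in gingiva. All 4 genes passed the low-count filter in every fit. Per library, Myb had 132 to 1068 counts in the DAC and 44 to 77 in gingiva, Plac8 had 1010 to 3680 and 115 to 433, Lrmp had 354 to 1417 and 181 to 303, and Map4k1 had 118 to 488 and 41 to 104. The DAC carried its tissue's markers, since all 7 genes of the osteoblast, osteocyte and odontoblast list were called higher in the DAC than in gingiva of Sham mice (39.7% of all genes were) and all 3 keratinocyte genes were called lower (35.4% of all genes were). The DAC libraries were uneven in neighbouring tissue: nasal gland genes took 0.399 to 0.869% of counts in OVXE2, 0.265 to 13.9% in OVX and 0.369 to 2.47% in Sham, with none of the 10 listed genes at 0 in any DAC library. In 8 libraries from both tissues and all 3 groups, 3.38 to 4.76% of reads lay opposite to the strand of their gene, against 5.69 to 9.03% in the other 16.

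Each of the 4 genes was lower in the DAC of OVXE2 mice than in either other group, with no overlap between libraries. Levels are CPM, read counts of a gene scaled to the total of its library and, by TMM, within the tissue. Myb stood at 7.13, 11.8, 5.94 and 10.2 CPM in the OVXE2 libraries, against 42.5, 39.7, 43.7 and 34.8 CPM in OVX and 34.5, 29.7, 22.9 and 18.3 CPM in Sham. The highest OVXE2 library was thus below the lowest Sham library, and the means were 8.77 ± 2.70, 40.2 ± 3.92 and 26.3 ± 7.19 CPM (SD, n = 4 each). The log2 change of Myb was −2.19 (SE 0.24) for OVXE2 against OVX, a level 4.57-fold lower, and −1.58 (SE 0.24) for OVXE2 against Sham. Myb had the largest of the 4 changes, and it ranked 70th from the lowest of 13617 genes tested in OVXE2 against OVX.

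In the DAC, Plac8 was the most abundant of the genes and had the smallest log2 change for OVXE2 against OVX. It stood at 36.3, 38.7, 45.4 and 37.4 CPM in the OVXE2 libraries of the DAC, against 92.0, 98.0, 103.6 and 122.4 CPM in OVX and 105.1, 91.1, 75.5 and 81.9 CPM in Sham. Its OVX and Sham libraries overlapped, and both stayed above every OVXE2 library. The log2 change was −1.40 (SE 0.12) for OVXE2 against OVX, 2.64-fold lower, and −1.16 (SE 0.12) for OVXE2 against Sham.

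Lrmp and Map4k1 had narrow ranges among the OVXE2 libraries. Lrmp stood at 16.2, 16.9, 15.9 and 17.05 CPM in OVXE2, against 49.3, 49.96, 57.3 and 47.1 CPM in OVX and 48.0, 41.7, 36.7 and 33.0 CPM in Sham. Map4k1 stood at 5.34, 5.03, 5.31 and 5.23 CPM in OVXE2, against 15.3, 15.4, 16.2 and 16.2 CPM in OVX and 13.3, 12.8, 10.9 and 9.11 CPM in Sham. The membrane protein gene and the kinase gene thus had nearly the same proportional drop. For OVXE2 against OVX the log2 change was −1.62 (SE 0.11) for Lrmp, 3.08-fold lower, and −1.59 (SE 0.12) for Map4k1, 3.02-fold lower. For OVXE2 against Sham it was −1.27 (SE 0.11) for Lrmp and −1.14 (SE 0.12) for Map4k1.

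The choice of genes fixes all 4 as called and as not overlapping in OVXE2 against OVX. Over all genes, edgeR's quasi-likelihood test with Benjamini-Hochberg adjustment at 0.05 called 1.45% lower and 0.676% higher in that comparison, and 3.51% had every OVXE2 library below every OVX library. For OVXE2 against Sham, which shares the OVXE2 libraries, 0.661% were called lower and 2.78% had every OVXE2 library below every Sham library. In a further fit, 4 DAC libraries set aside for nasal gland or brain neuron genes were left out (OVX 1, Sham 2, OVXE2 1 and OVXE2 2). They were not the 4 richest in nasal gland genes, which took a median of 2.00% of counts in DAC Sham and at most 0.869% in OVXE2. The log2 changes for OVXE2 against OVX were then −2.28 for Myb, −1.38 for Plac8, −1.64 for Lrmp and −1.59 for Map4k1. Among the DAC libraries with the higher share of opposite-strand reads they were −2.24, −1.49, −1.67 and −1.63 in the same gene order.

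**Figure D1:**
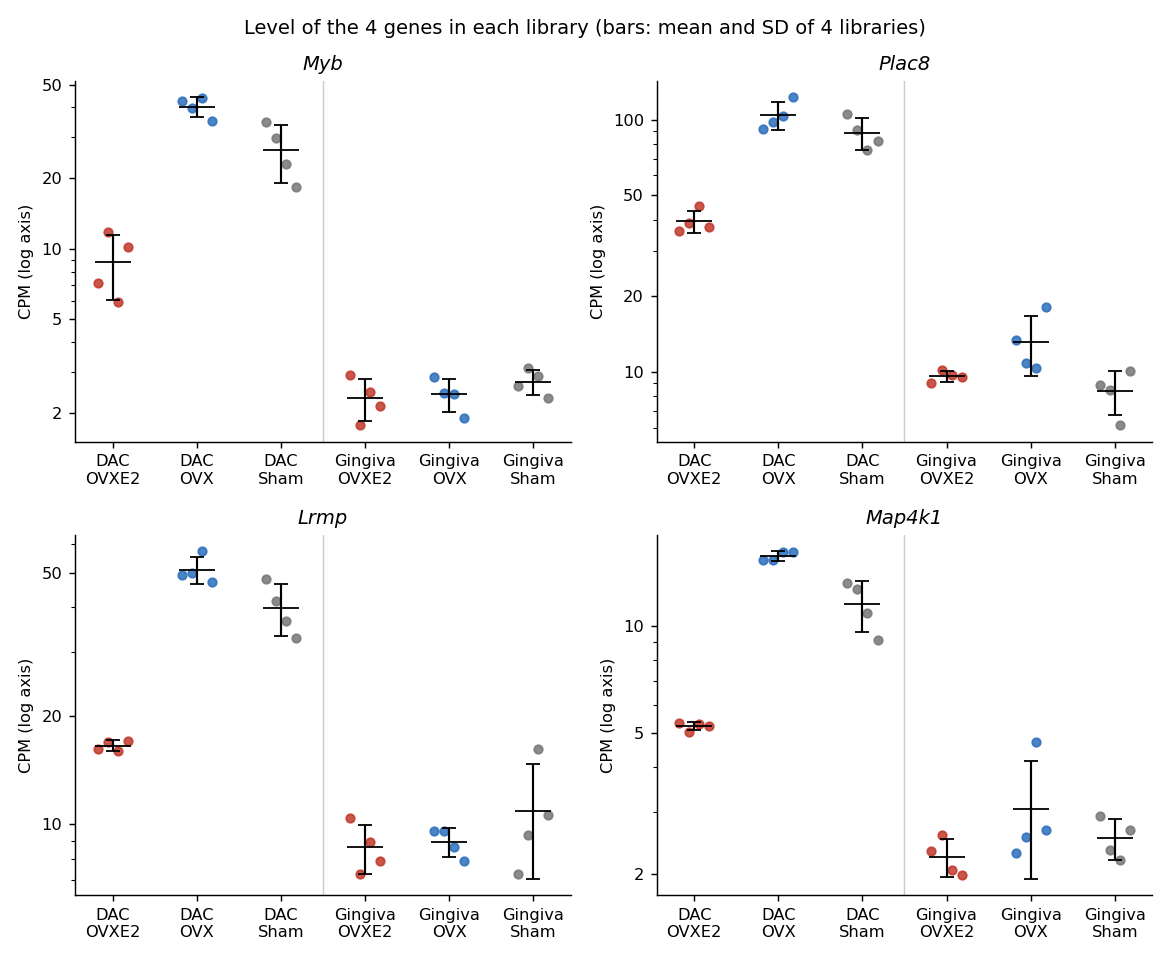
CPM on a log axis in each of the 24 libraries, 1 panel per gene, with OVXE2, OVX and Sham of the DAC left of OVXE2, OVX and Sham of gingiva. Points are libraries and bars are the mean and SD of 4, and in the DAC all OVXE2 points lie below all OVX and Sham points, for Myb at 5.94 to 11.8 CPM against 34.8 to 43.7 CPM in OVX.

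Levels were then compared between the genes as TPM, which divide each count by the summed exon length of the gene before scaling. In the DAC of OVXE2 mice Plac8 averaged 81.6 ± 5.54 TPM, Lrmp 13.5 ± 1.91 TPM, Map4k1 5.63 ± 0.564 TPM and Myb 3.33 ± 1.33 TPM. In the DAC of OVX mice they averaged 203.8 ± 38.8, 38.8 ± 4.93, 15.9 ± 1.62 and 13.9 ± 1.30 TPM in the same order (SD, n = 4 each). Plac8 was the highest of the 4 and Lrmp the next in every group of the DAC. Map4k1 and Myb overlapped in TPM in all 3 groups of the DAC, at 13.8 to 17.3 TPM for Map4k1 and 12.8 to 15.7 TPM for Myb in OVX.

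Libraries of a group did not vary alike. In DAC Sham, library 1 had the highest CPM of all 4 genes, while in TPM library 2 was the highest for all 4. Library 4 had the lowest CPM of Myb, Lrmp and Map4k1 but not of Plac8. General leukocyte genes took 0.214% of the counts in Sham libraries 1 and 2, 0.175% in library 3 and 0.182% in library 4. The part of leukocyte content in that spread was not tested.

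Ovariectomy without estradiol went with slightly higher values of the 4 genes in the DAC, but none passed the test. This comparison was not used to choose the genes, although its OVX libraries were. The log2 change for OVX against Sham was 0.61 (SE 0.23) for Myb, 0.23 (SE 0.12) for Plac8, 0.35 (SE 0.11) for Lrmp and 0.45 (SE 0.12) for Map4k1. Each had an adjusted p of 0.874 by edgeR. Of the 4 genes 0 were called, as of all genes tested (0%), and 3 of 4 had an unadjusted p under 0.05 against 3.21% of all genes. DESeq2 called 10 of 13617 genes and limma-voom called 0, and neither called any of the 4. Myb and Map4k1 had every OVX library above every Sham library, which was so for 1.66% of all genes. Both Plac8 and Lrmp overlapped between OVX and Sham.

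**Figure D2:**
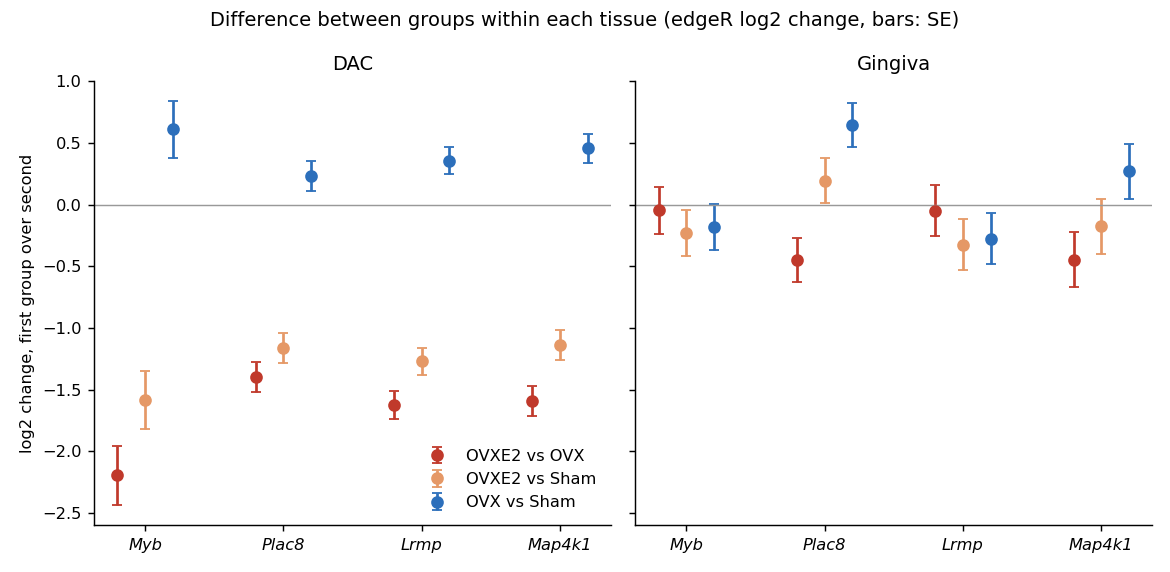
Log2 change of each gene, with the SE as bars, for 3 comparisons within the DAC (left) and within gingiva (right), from edgeR. In the DAC the values of OVXE2 lie between −2.19 and −1.14 and those of OVX against Sham between 0.23 and 0.61, while in gingiva they lie between −0.45 and 0.65.

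In gingiva the genes were low in every group and none was called in any comparison. Myb averaged 2.32 ± 0.477 CPM in OVXE2, 2.40 ± 0.383 CPM in OVX and 2.72 ± 0.340 CPM in Sham, and Lrmp averaged 8.62 ± 1.35, 8.93 ± 0.820 and 10.8 ± 3.80 CPM in the same order (SD, n = 4 each). For OVXE2 against OVX the log2 change was −0.05 (SE 0.19) for Myb and −0.05 (SE 0.21) for Lrmp, with adjusted p of 0.934 and 0.941 by edgeR. Both signs turned when 1 library was left out: without OVXE2 library 2 the log2 changes were 0.061 for Myb and 0.023 for Lrmp.

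Plac8 and Map4k1 had lower gingival values in OVXE2 than in OVX, short of the threshold. Plac8 stood at 9.02, 10.1, 9.73 and 9.55 CPM in OVXE2, against 13.4, 10.9, 10.3 and 17.997 CPM in OVX and 8.86, 8.48, 6.13 and 10.1 CPM in Sham. Its OVXE2 libraries lay below all OVX libraries, as did those of 2.92% of the 12680 genes tested. The log2 change was −0.45 (SE 0.18), with an adjusted p of 0.316 by edgeR. Map4k1 stood at 2.32, 2.58, 2.05 and 1.99 CPM in OVXE2, against 2.29, 2.54, 4.70 and 2.66 CPM in OVX. OVX library 3 stood apart from the rest, and the log2 change was −0.45 (SE 0.22, adjusted p = 0.386 by edgeR) with it and −0.16 without it.

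Over gingival OVXE2 against OVX, 1 of the 4 genes, Plac8, had an unadjusted p under 0.05, against 13.9% of all genes. By edgeR 0 of 12680 genes (0%) were called, limma-voom called 0 and DESeq2 called 92, none of them among the 4. Without OVX library 3 edgeR called 60 genes, again none of the 4. For gingival OVX against Sham, Plac8 was higher by 0.65 (SE 0.18) on the log2 scale with no overlap, as were 2.22% of genes, and its adjusted p was 0.376 by edgeR. It was the 1 of 4 genes with an unadjusted p under 0.05 there, against 12.1% of all genes. The other 3 gave −0.18 for Myb, −0.28 for Lrmp and 0.27 for Map4k1, with adjusted p between 0.581 and 0.698, and edgeR again called 0% of genes. DESeq2 called 44 genes there and gave the 4 no adjusted p, and limma-voom called 0. For gingival OVXE2 against Sham the changes were −0.23 for Myb, 0.19 for Plac8, −0.33 for Lrmp and −0.18 for Map4k1, with 0 of 4 at an unadjusted p under 0.05 (7.41% of all genes) and 0% called. DESeq2 called 8 genes and limma-voom 0 in that comparison, none of them among the 4.

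Set on a common scale of all 24 libraries, every gene was higher in the DAC than in gingiva. In Sham mice, a group outside the OVXE2 against OVX comparison, Myb averaged 24.8 ± 6.86 CPM in the DAC and 2.84 ± 0.352 CPM in gingiva, and Plac8 83.1 ± 12.4 and 8.76 ± 1.72 CPM (SD, n = 4 each). Lrmp averaged 37.4 ± 6.26 CPM in the DAC and 11.3 ± 3.99 CPM in gingiva, and Map4k1 10.8 ± 1.83 and 2.64 ± 0.340 CPM. The log2 difference was 3.12 for Myb, 3.24 for Plac8, 1.73 for Lrmp and 2.03 for Map4k1, with edgeR adjusted p of 8.98e-11, 4.05e-13, 1.22e-08 and 1.75e-09. All 4 were called higher, as were 39.7% of the 14209 genes tested, and 36.6% had every DAC library above every gingival library.

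The gap between tissues was smallest in OVXE2 mice. There the log2 difference, DAC over gingiva, was 1.80 for Myb, 1.91 for Plac8, 0.82 for Lrmp and 1.10 for Map4k1, against 3.94, 2.86, 2.39 and 2.24 in OVX mice. The log2 change of OVXE2 against OVX in the DAC minus that in gingiva was −2.13 for Myb, −0.94 for Plac8, −1.57 for Lrmp and −1.14 for Map4k1, which is a description since the DAC side chose the genes. The change of OVX against Sham was tested for a difference between tissues, and edgeR called 0 of 14209 genes (0%). That difference was 0.82 for Myb, −0.38 for Plac8, 0.66 for Lrmp and 0.21 for Map4k1, with adjusted p between 0.575 and 0.756. Of the 4 genes 2 had an unadjusted p under 0.05, against 8.53% of all genes, and DESeq2 and limma-voom also called 0 genes. The DAC OVX libraries in this test are among those on which the genes were chosen, so it is not independent of that choice.

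In order of level over the 6 groups, each gene was highest in DAC OVX, then DAC Sham, then DAC OVXE2, with the gingival groups last. Myb separated at each of these steps in the DAC, with libraries of 33.6 to 41.4, 17.1 to 32.5 and 5.46 to 11.5 CPM on the common scale, and its 3 gingival groups overlapped between 1.86 and 3.23 CPM. Lrmp in DAC OVXE2, at 14.6 to 16.7 CPM, overlapped with gingival Sham, which reached 16.9 CPM. Map4k1 in DAC OVXE2, at 4.88 to 5.27 CPM, overlapped with gingival OVX through the library at 4.94 CPM. OVX and Sham of the DAC overlapped for Plac8 on both scales, and for Lrmp within the tissue's scale but not on the common scale.

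Because these are bulk tissues, fewer cells of a type and less RNA per cell cannot be told apart. The 10 listed genes of a pan-leukocyte list, such as Ptprc and Cd53, took 0.135 to 0.1595% of counts in DAC OVXE2, 0.184 to 0.234% in DAC OVX and 0.175 to 0.214% in DAC Sham, and 0.0227 to 0.0421% across gingiva, with none of them at 0 in any library. Per 1000 counts of that list, Myb had 5.94 ± 1.84 in DAC OVXE2, against 19.7 ± 3.25 in DAC OVX and 13.3 ± 2.69 in DAC Sham (SD, n = 4 each). Plac8 had 26.6 ± 1.64, against 50.3 ± 3.58 and 44.9 ± 2.90, Lrmp had 11.2 ± 1.13, against 24.9 ± 3.59 and 20.2 ± 1.89, and Map4k1 had 3.54 ± 0.393, against 7.67 ± 0.522 and 5.85 ± 0.643. All 4 thus stayed lower in DAC OVXE2 relative to the leukocyte genes. The log2 difference of this ratio for OVXE2 against OVX was −1.77 for Myb, −0.92 for Plac8, −1.15 for Lrmp and −1.12 for Map4k1, smaller in size than the plain changes. With Ptprc alone as the leukocyte count it was −0.71 for Plac8, −0.94 for Lrmp and −0.91 for Map4k1.

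**Figure D3:**
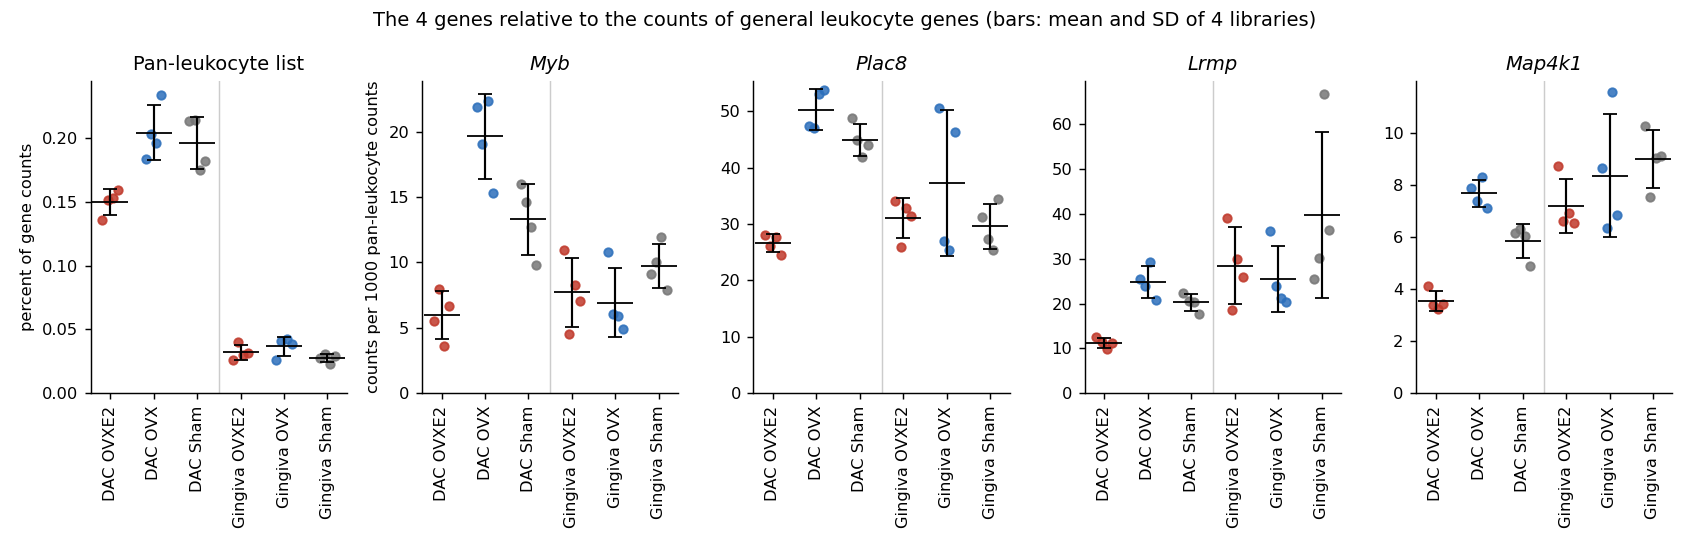
Percent of gene counts taken by the pan-leukocyte list (left) and counts of each gene per 1000 counts of that list, per library, with the mean and SD of 4 as bars. Relative to leukocyte counts the 4 genes remain lowest in DAC OVXE2 within the DAC, for Myb at 5.94 against 19.7 in OVX, while the gingival groups reach the range of the DAC groups or exceed it.

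The same ratio was tested for the 4 genes in 4 comparisons, 16 tests in all, by two-sided exact permutation tests of 4 against 4 libraries, which cannot go below p = 0.0286. None passed after adjustment, which says little, since adjusted over 16 tests a pass needs most of them to stand at that smallest p. The smallest value was that of Map4k1 for DAC OVX against Sham, with a log2 difference of 0.40, an exact permutation p of 0.0286 and an adjusted p of 0.229. Its OVX libraries are those on which the genes were chosen, so it is not independent of that choice. Between tissues in Sham mice, a comparison added after the values were seen, the order of the genes split. Plac8 per leukocyte count was higher in the DAC than in gingiva by 0.61 on the log2 scale (exact permutation p = 0.0286, adjusted p = 0.0381 over 4 tests), and with Ptprc alone by 1.58. With the list the difference was −0.88 for Lrmp and −0.62 for Map4k1 (adjusted exact permutation p = 0.0381 each). With Ptprc alone it was 0.10 for Lrmp, which did not pass, and 0.36 for Map4k1, which did (adjusted exact permutation p = 0.0381). Map4k1 thus passed in opposite directions, and the direction for both genes rests on the genes that stand for leukocytes. Myb was higher by 0.44 with the list, which did not pass (exact permutation p = 0.0857), and by 1.42 with Ptprc alone, which did (adjusted exact permutation p = 0.0381).

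Other genes that act with the 4 or belong to the same families were read from lists drawn up with earlier results of these data known. For OVXE2 against OVX in the DAC, 6 of 27 transcription factor genes of blood formation were called lower and 0 higher by edgeR, against 1.45% of all genes called lower. Their median log2 change was −0.35, beside 0.02 over all genes. The B cell factor Pax5 averaged 3.20 ± 1.22 CPM in OVXE2 libraries and 25.3 ± 4.97 CPM in OVX libraries and fell by 2.98 on the log2 scale (adjusted p = 0.000289 by edgeR). Ikzf1, a zinc finger factor of lymphoid precursors, fell by 1.37 on the log2 scale (adjusted p = 0.00271 by edgeR), the granulocyte factor Cebpe fell by 1.60 and the myeloid factor Irf8 fell by 0.81. Of 13 progenitor receptors and surface genes, Cd27 and Flt3 were called lower, at −1.70 and −1.05. The stem cell factor receptor Kit (0.10) and the progenitor surface gene Cd34 (0.50) were not called.

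None of the 5 listed relatives and cofactors of Myb was called. Mybl2, the family member of dividing cells, averaged 9.89 ± 0.964 CPM in DAC OVXE2 and 13.8 ± 1.52 CPM in DAC OVX. Its log2 change was −0.48 (adjusted p = 0.124 by edgeR), and that of Mybl1 was −0.24 (adjusted p = 0.959). Of 5 tested genes reported as Myb targets, the neutrophil granule genes Mpo and Elane were called lower, at −1.89 and −1.70, while Kit, Cd34 and the survival gene Bcl2 (−0.05) were not. Of 10 genes of cell division, 1 was called lower, the replication gene Mcm5 at −0.39, and the list's median was −0.19.

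Of 6 other kinases of the Map4k1 family looked for, 3 were found among the named gene IDs. These are broadly expressed, and 0 of 3 were called, with log2 changes of 0.22 for Map4k4, 0.16 for Mink1 and 0.08 for Tnik. In the antigen receptor pathway that Map4k1 restrains, 3 of 17 genes were called lower and 0 higher. They were the T cell kinase Lck at −1.59 (adjusted p = 0.0198 by edgeR), the phospholipase Plcg2 at −0.48 (adjusted p = 0.0282) and the B cell kinase Btk at −0.57 (adjusted p = 0.0352). The adaptor gene Lcp2, whose protein SLP-76 is a substrate of the kinase, had a log2 change of −0.22 (adjusted p = 0.439). The list's median was −0.04.

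Among 7 relatives and partners of Lrmp, 1 was called, and in the opposite direction. Hcn4, a pacemaker channel gene whose protein Lrmp can modulate in cultured cells, averaged 6.41 ± 1.03 CPM in DAC OVXE2 and 2.63 ± 0.588 CPM in DAC OVX and rose by 1.28 on the log2 scale (adjusted p = 0.0114 by edgeR). Mrvi1, the closest relative of Lrmp, had a log2 change of 0.45 (adjusted p = 0.485), and the inositol trisphosphate receptor genes Itpr1 and Itpr2 had 0.06 and −0.18. Cnfn, an epithelial gene with the cysteine-rich domain of Plac8, varied widely between libraries, at 41.7 ± 43.0 CPM in OVXE2 and 27.0 ± 22.1 CPM in OVX, and was not called.

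Genes of several cell type lists were called lower beside the 4 genes in the same comparison, where 1.45% of all genes were. The lists share genes: Pax5, Cebpe, Mpo, Elane and Lck, named above, are counted again here. Of 8 B lymphopoiesis genes, 7 were called lower, and the list took 0.00480 to 0.00741% of counts in DAC OVXE2, against 0.0199 to 0.0276% in OVX and 0.0106 to 0.0158% in Sham. Of 10 immature neutrophil genes, 9 were called lower, at 0.123 to 0.172% of counts in OVXE2, against 0.315 to 0.447% in OVX and 0.210 to 0.464% in Sham. Neither list had a gene at 0 in any DAC library. Of the pan-leukocyte genes 5 of 10 were called lower (median log2 change −0.69) and of mast cell genes 3 of 5 (median −1.25). Of T and NK cell genes 3 of 15 were called lower, while 14 of 15 had lower values (median −1.54). Of mature B and plasma cell genes 1 of 8 was called lower (median −0.93), and of monocyte and macrophage genes 1 of 8 (median −0.02). Of 9 genes of plasmacytoid dendritic cells, which are known to express Plac8, the transcription factor gene Spib was called lower at −2.53 and Siglech, a defining marker, was not called (0.21). None of the erythroid, megakaryocyte or mature neutrophil genes was called, but most had lower values. Of erythroid genes 10 of 10 were lower (median −0.49), of megakaryocyte genes 6 of 7 (median −0.49) and of mature neutrophil genes 6 of 7 (median −0.39). The median over all genes was 0.02. The part of these cell types in the change of the 4 genes was not tested.

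**Figure D4:**
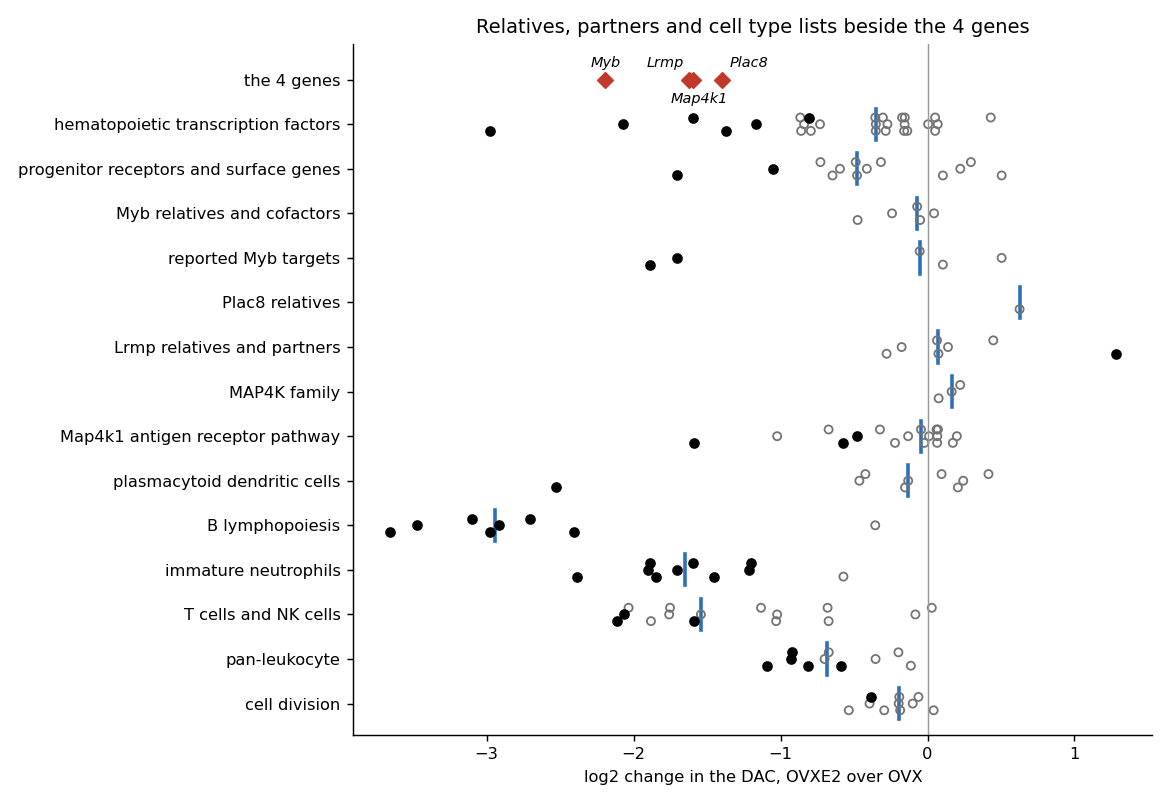
Log2 change in the DAC, OVXE2 over OVX, of the 4 genes (diamonds) and of the genes of 14 lists, filled where edgeR called them at an adjusted p under 0.05, with each list's median as a vertical line. Called genes gather in the B lymphopoiesis and immature neutrophil lists. Among the relatives of the 4 genes, the cofactors of Myb and the partners of Lrmp, the 1 called gene is Hcn4 at 1.28. Uncalled genes there lie between Mybl2 at −0.48 and Cnfn at 0.63. In the antigen receptor pathway of Map4k1, 3 of 17 genes are called lower, and of the reported Myb targets 2 of 5.

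Genes with the most similar pattern were ranked by the root mean square difference in log2 CPM over all 24 libraries, after centring each gene, among 9718 candidates. Nearest to Myb was Ikzf1 at 0.44, followed by Nkg7, Atp8b4, Gca and Cst7 at up to 0.50. Nearest to Plac8 was Cnr2 at 0.27, followed by Arl5c, Coro1a, Gmfg and Arhgdib. Lrmp had Spns3 and S1pr4 nearest, both at 0.30, and Map4k1 as the third at 0.35, followed by Carmil2 and Nup210. Map4k1 had Myo1g nearest at 0.25, then S1pr4, Carmil2, Rnase6 and Sash3. S1pr4 and Carmil2 thus stood near both Lrmp and Map4k1, and Myb was the gene with the least close neighbours. Within the 12 DAC libraries alone, Lrmp and Map4k1 differed by 0.10. Those libraries, like the full 24, hold the comparison that chose the genes, so likeness there partly follows from the choice. Within the gingival libraries alone Lrmp and Map4k1 differed by 0.47, and the closest pair was Myb and Lrmp at 0.25.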

How the data were processed

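Raw gene counts, deposited by the authors as 1 table per library, were used. Per the submitters' processing notes, reads were processed with fastp, STAR and DESeq2 on GRCm38 (mm10) (the sources used here give no versions). The tables have STAR's gene count layout, and the column of the strand that held most reads was taken. GENCODE M21 named 38186 of 38321 IDs. The labels call libraries biological replicates, without saying whether each is a separate mouse or whether both tissues share mice, so p-values measure the spread between these libraries. After filterByExpr and TMM scaling, edgeR 4.0.16 (glmQLFit, robust, and glmQLFTest) in R 4.3.3 tested the counts over all genes of the 12 libraries of a tissue, or of all 24, with Benjamini-Hochberg adjustment. Alternatives included DESeq2 1.42.0 and limma-voom (limma 3.58.1). Log2 CPM had a prior count of 2. The scripts were tested on simulated data.

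Members and lists were chosen with earlier results of these data known. List counts cover only symbols found among the named gene IDs and tested, so many are parts of a list. Found were 8 of 14 symbols for B lymphopoiesis, 3 of 8 for keratinocytes, 5 of 8 for Myb relatives and cofactors and 7 of 13 for Lrmp relatives and partners. Named genes were the members, their relatives, up to 4 called genes per list by smallest p in DAC OVXE2 against OVX, or up to 2 where none was called, and the 5 nearest genes in pattern with a mean of at least 1 log2 CPM. Plasmacytoid dendritic, partner and Myb target genes of low p or textbook role that this rule leaves out (Siglech, Lcp2, Kit, Cd34, Bcl2) were named after their values were seen. Of the 4 genes, Myb overlaps the antisense Gm26577 and Lrmp overlaps Casc1 and Gm43910, which had at most 72 counts.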

Additional observations from a re-analysis of the deposited data

Results flagged for a closer look

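Of 24 groups of 4 libraries checked (each gene in each tissue and group), 1 had a library apart from the other 3, where chance alone marks about 1 in 20. Map4k1 stood at 4.70 CPM in gingival OVX library 3, against 2.29 to 2.66 CPM in the other gingival OVX libraries, a gap of 0.846 of the group's range, past Dixon's 95% critical value. In that library B lymphopoiesis genes took 0.00441% of counts, against 0.00105 to 0.00155% in the other gingival OVX libraries, while the pan-leukocyte list took 0.0421%, close to OVX library 2 at 0.0407% and OVX library 4 at 0.0388%, with OVX library 1 at 0.0259%. Their part in the Map4k1 value was not tested.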

How the results depend on the processing

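The numbers of the 4 genes called in the 6 tested comparisons (0 of 4, or 4 of 4 between tissues in Sham) were the same under the alternatives run. The exception is DESeq2 in gingival OVX against Sham, which gave the 4 no adjusted p and so no result. In the comparisons with 0 of 4, edgeR's main fit called 0 genes of any kind, so an unchanged 0 says little. No log2 change within the DAC or between tissues turned its sign. Leaving out each library gave log2 changes for DAC OVXE2 against OVX of −2.37 to −2.05 for Myb, −1.47 to −1.31 for Plac8, −1.66 to −1.56 for Lrmp and −1.61 to −1.57 for Map4k1. Same-numbered libraries did not deviate together (correlations −0.35 to 0.35 in the DAC and −0.53 to 0.28 in gingiva), so the numbers give no pairing. With the replicate block the changes were −2.21, −1.40, −1.62 and −1.59 in that gene order, and 250 genes instead of 290 were called. DESeq2 called 598 genes, a fit of those 2 groups alone 189 and DAC libraries of higher opposite-strand share 39. DAC libraries without the 4 set aside for gland or neuron genes gave 37. Leaving out each library gave 176 to 290, the lowest without OVXE2 library 4 or 1 (178) or OVX library 4 (186). For DAC OVXE2 against Sham, 143 genes were called, against 340, 64, 16 and 10 under those alternatives and 61 to 164 with a library left out, with 61 to 93 without any 1 of the Sham libraries or OVXE2 library 1, 2 or 4. Library size as the only scaling shifted the median over all genes between tissues in Sham to 0.25, from 0.07.

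Signs turned for small differences and for the between-tissue leukocyte ratios of Lrmp and Map4k1 in Sham, which had passed with the list. The cause was not tested. Leaving out each gingival library moved Myb in OVXE2 against OVX between −0.17 and 0.061 (0.046 without OVX library 1), Lrmp between −0.15 and 0.023, and Map4k1 in OVX against Sham between −0.017 (without OVX library 3) and 0.39. Lrmp in gingival OVX against Sham was 0.038 in libraries of higher opposite-strand share. Per leukocyte count, Ptprc alone gave −0.71 for Plac8, −0.94 for Lrmp and −0.91 for Map4k1 in DAC OVXE2 against OVX. It gave −0.058 for Plac8 in DAC OVX against Sham. Between tissues in Sham it gave 0.099 for Lrmp, 0.36 for Map4k1 and 1.42 for Myb. Of these Myb then passed, and Map4k1 passed with its sign turned. The gingival ratio for OVXE2 against OVX ranged from −0.039 to 0.39 for Myb and from −0.019 to 0.34 for Lrmp, and for OVXE2 against Sham from −0.00065 to 0.15 for Plac8, with a library left out. The between-tissue ratios in Sham cannot pass with 3 against 4 libraries. Myb and Map4k1 rest on few counts in gingiva, at 41 to 104 per library.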
